A study of Bos taurus with 45 samples.

Results

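A set of 69 genes had lower mean expression in ruminal papillae of heifers fed 89% grain than of the same heifers fed 0% grain. The genes were taken from 11516 expressed genes, those with reads per 1000000 reads on genes (RPM) over 1 in all 15 heifers on at least 1 diet, out of 24616 genes in the files. A gene entered the set when its log2(RPM + 1) on 89% grain minus that on 0% grain, averaged over the 15 heifers, was -0.5 or less. In total, 76 genes passed this limit, and 7 of them were among 14 gene identifiers that the rule leaves out, which left the 69 genes, called members here. All 69 were tested, since each of them passed the expression filter on 0% grain. The members were thus chosen by their measured difference between 89% and 0% grain, so that difference is described below and not taken as a test of the members.

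Ruminal papillae were collected from 15 Angus-Hereford cross-bred yearling heifers, labelled as healthy, that were moved in steps to a high grain diet. Each heifer was sampled on 0%, 72% and 89% barley grain, which the sample labels name 3%, 75% and 92% grain, and this gave 45 samples of mRNA sequencing, 15 per diet. The 3 diets came in the same order in every heifer, so that diet and time on the experiment cannot be told apart. Heifers kept on a single diet were not analysed here.

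Ruminal papillae are folds of a stratified squamous epithelium over a core of connective tissue and vessels. They take up the short-chain fatty acids that microbes make from feed and pass part of them on as ketone bodies. Grain ferments faster than forage, and the epithelium, its barrier and its immune cells are known to respond when cattle are moved to grain. A biopsy holds all of these cells, so that fewer cells of a type and less RNA per cell cannot be told apart in these values.

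The files give each gene by its Ensembl identifier and do not pair identifiers with names. None of the identifiers could be matched to a symbol in the reference table at hand. The members are therefore given by their rank, from 1 for the largest mean fall from 0% to 89% grain to 69 for the smallest, and 2 of them also by identifier. What each member does, and whether markers of epithelium, muscle or immune cells were among them, was not analysed here.

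Between 22.53 and 37.08 M reads (M, 1000000 reads) lay on genes in a sample, with a mean of 30.4 M and an SD of 3.5 M over the 45 samples. A level of 1 RPM thus stood for at least 22.5 counted reads. These reads are the steps between RPM values, and whether a step is a read or a pair of mates is not settled by the files. The sample of heifer 172 on 0% grain and that of heifer 286 on 89% grain lay farthest from their diets. Over the 11516 genes, their mean absolute deviation from the median of the diet was 0.315 and 0.336 on the log2 scale. In the same measure, the other 0% grain samples lay between 0.14 and 0.28, and the other 89% grain samples between 0.144 and 0.208. Leaving out heifer 172 gave 61 genes under the rule, 57 of them members, and leaving out heifer 286 gave 54 genes, 51 of them members.

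The members were neither rare nor among the lowest transcripts. Their mean level on 0% grain ranged from 2.37 to 3320 RPM with a median of 18.2 RPM, against a median of 21.1 RPM over all expressed genes. There were 19 members under 10 RPM, 35 from 10 to 100 RPM and 15 over 100 RPM, of which 2 were over 1000 RPM. Expression stayed over 1 RPM in all 15 heifers on all 3 diets for 65 members. The lowest value of any member in any sample was 0.356 RPM. Summed over the members, the RPM was 10180 ± 5553 at 0% grain, 7757 ± 2361 at 72% grain and 5680 ± 1186 at 89% grain (SD, n = 15). These sums are dominated by a few high genes.

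**Figure D1:**
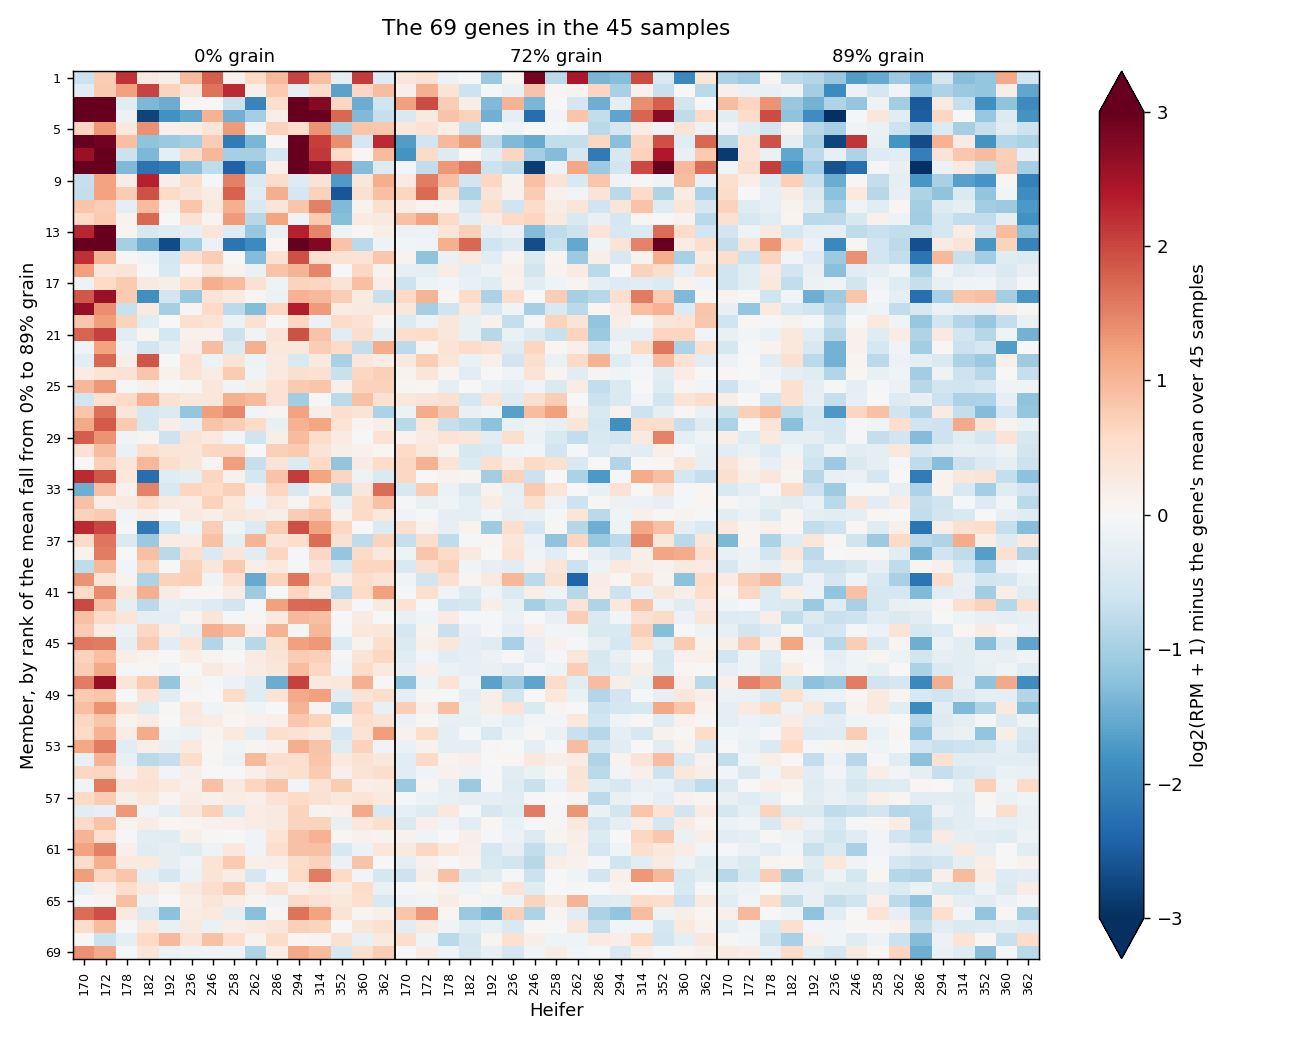
Level of the 69 members (rows, by rank of the mean fall) in the 45 samples (columns, by diet and heifer), as log2(RPM + 1) minus the mean of the gene over all samples; the colour scale ends at -3 and 3. Dark red cells stand in heifers 170, 172, 294 and 314 on 0% grain and, among others, in heifer 352 on 72% grain. The column of heifer 286 on 89% grain is the most evenly blue.

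The mean fall from 0% to 89% grain had a median of -0.64 on the log2 scale over the members and reached -1.63. Over all expressed genes, the median difference was 0.06. A fall of 1 or more was seen in 9 members, and 44 were lower by more than a fold change of 1.5. At the limit, the 3 members just inside had mean differences of -0.5055, -0.5012 and -0.501, and the 3 genes just outside had -0.4992, -0.4986 and -0.4975.

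The member ranked 1 was ENSBTAG00000039861. Its RPM on 0% grain was 4.95 at the lowest, 14.9 at the median and 40.8 at the highest. On 72% grain these values were 1.43, 7.92 and 67.2 RPM, and on 89% grain they were 1.94, 3.46 and 19.5 RPM. Every heifer had less of it on 89% than on 0% grain, although the ranges of the diets overlapped. Heifer 360 had the highest value on 89% grain, 19.5 RPM, and 13 of the other 14 heifers were under 6 RPM there. On 72% grain the heifers split widely, with 67.2 RPM in heifer 246, 49.2 RPM in heifer 262 and 35.2 RPM in heifer 314 against 1.43 RPM in heifer 360. The difference from 0% to 72% grain was -0.68 ± 0.41 (SE), with lower values in 10 of 15 heifers (limma, adjusted p = 0.238). That from 72% to 89% grain was -0.95 ± 0.38, with lower values in 11 of 15 heifers (limma, adjusted p = 0.318).

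The number of heifers that showed the fall differed between members. In 6 members the value was lower on 89% than on 0% grain in all 15 heifers, in 26 it was lower in 13 or 14, in 26 in 11 or 12, and in 11 members in 8 to 10 heifers. A value lower in all 15 heifers was found for 0.174% of the expressed genes. The members lower in all 15 heifers were those ranked 1, 17, 24, 35, 43 and 57. The member ranked 57 had the narrowest spread between heifers of all members on 0% grain, and its RPM was 18.3 ± 2.69, 12.6 ± 2.01 and 12.4 ± 1.69 on the 3 diets in order (SD, n = 15). That ranked 43 had the highest level of the 6, with 537 ± 160 RPM, 457 ± 117 RPM and 345 ± 60.2 RPM on the 3 diets.

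The member ranked 17 was also lower on 89% than on 0% grain in every heifer. Its RPM was 23.2, 37.3 and 56.0 (lowest, median and highest) on 0% grain, 16.6, 21.9 and 28.4 on 72% grain, and 15.1, 22.0 and 32.3 on 89% grain. In this gene, 13 of the 15 values on 0% grain were above the highest value on 72% grain.

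Members lower in fewer heifers were those that differed most between heifers on 0% grain. The SD of log2(RPM + 1) between heifers on 0% grain had a median of 0.37 in the members lower in all 15 heifers, 0.5 in those lower in 13 or 14, 0.72 in those lower in 11 or 12, and 1.53 in those lower in 8 to 10. Both measures come from the samples that chose the members, so this is a description.

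**Figure D2:**
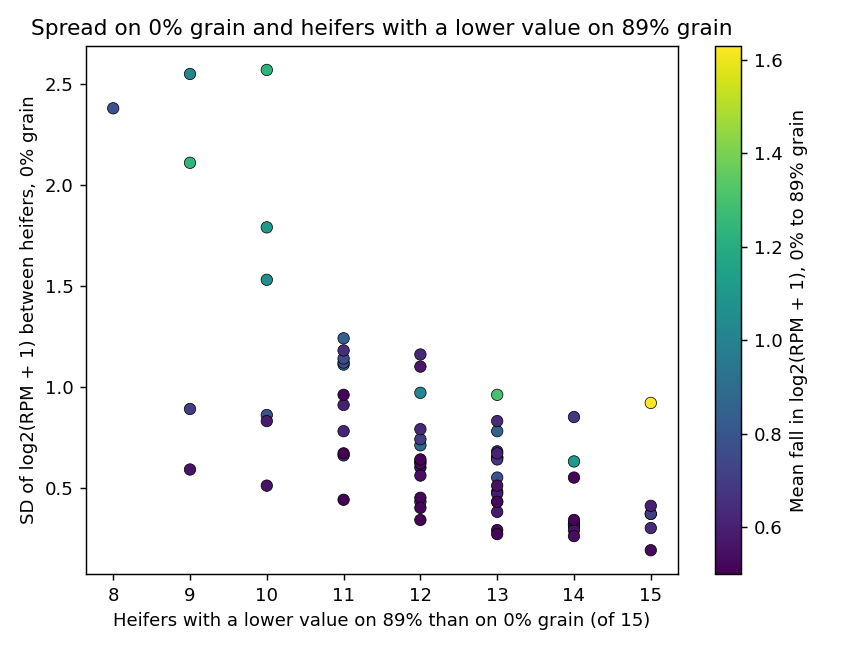
SD of log2(RPM + 1) between the 15 heifers on 0% grain against the number of heifers with a lower value on 89% than on 0% grain, 1 point per member, coloured by the mean fall. The members lower in all 15 heifers had an SD of 0.92 or less, and the 6 highest points, from 1.53 to 2.57, belong to members lower in 8 to 10 heifers.

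The widest spread on 0% grain, an SD of 2.57 on the log2 scale, belonged to ENSBTAG00000048171, the member ranked 4. Its RPM on 0% grain was 1.49 at the lowest, 14.2 at the median and 485 at the highest. On 72% grain the values were 2.5, 15.2 and 111 RPM, and on 89% grain 0.866, 12.5 and 65.9 RPM. The medians of the 3 diets were thus close, while the highest values were not. On 0% grain, heifer 172 had 485 RPM, heifer 294 had 428 RPM, heifer 170 had 409 RPM and heifer 314 had 139 RPM, and the other 11 heifers lay between 1.49 and 55.2 RPM. On 72% grain, the highest value was in heifer 352, with 111 RPM, and heifers 170, 172 and 294 were at 11.5, 19.6 and 4.76 RPM.

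ENSBTAG00000048171 was lower on 89% than on 0% grain in 10 of 15 heifers. From 0% to 72% grain, it was lower in 6 of 15 heifers, with a difference of -0.61 ± 0.69 (SE), which did not pass the threshold in limma (adjusted p = 0.564). In edgeR's quasi-likelihood test on the recovered reads, the same comparison gave a difference of -2.27 (adjusted p = 0.0372). The call for this gene therefore depended on the test, and both tests used the 0% grain samples that chose the members.

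On 0% grain, 18 of the other 68 members followed ENSBTAG00000048171 across the 15 heifers with a Pearson correlation over 0.8 on the log2 scale. The share was 26.5% of these 68 members and 1.48% of all expressed genes (170 of 11515). Without heifer 172 there were 14 such members. The closest was the member ranked 8, with a correlation of 0.97, and its RPM on 0% grain was 7.11 at the lowest, 24.8 at the median and 1192 at the highest. The points share their libraries, and a gene high in a few heifers on 0% grain is also favoured by the rule, so the correlations describe these samples. On 72% grain 2 members and on 89% grain again 2 members correlated over 0.8 with ENSBTAG00000048171, each time 2.94% of the 68, and of all expressed genes 0.174% and 0.122% did.

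In 17 of these 19 members (ENSBTAG00000048171 included), heifers 170, 172, 294 and 314 held the 4 highest values on 0% grain. This is largely set by the choice of the 19, since the same 4 heifers are the highest in ENSBTAG00000048171. The 4 heifers were also picked from the 19, so the shares below describe these samples. The same 4 heifers were the highest in 29 of the 69 members (42%), in 12 of the 50 members outside the 19, and in 3.41% of all expressed genes. Their 0% grain samples had 29.67, 32.71, 32.82 and 31.55 M reads on genes, inside the range of the diet from 24.63 to 36.65 M. The 19 members were lower on 89% grain in a median of 11 heifers, and the other 50 in a median of 13 heifers. The member ranked 14, 1 of the 19, had the third highest level of all members on 0% grain, with 909 ± 1464 RPM (SD, n = 15), and then 345 ± 408 and 187 ± 128 RPM on the grain diets, yet it was lower on 89% than on 0% grain in 8 of 15 heifers.

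On 0% grain 1 member correlated over 0.8 with ENSBTAG00000039861, the member ranked 58, with a coefficient of 0.89. This is 1.47% of the other 68 members, and 5 of 11515 expressed genes (0.0434%) correlated with it as highly. The same member was its closest on 72% grain (0.86) and on 89% grain (0.82). The RPM of the member ranked 58 was 12.0 ± 5.51, 11.7 ± 7.14 and 7.79 ± 3.17 on the 3 diets in order (SD, n = 15), and like ENSBTAG00000039861 it was highest in heifer 246 on 72% grain, with 29.7 RPM.

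**Figure D3:**
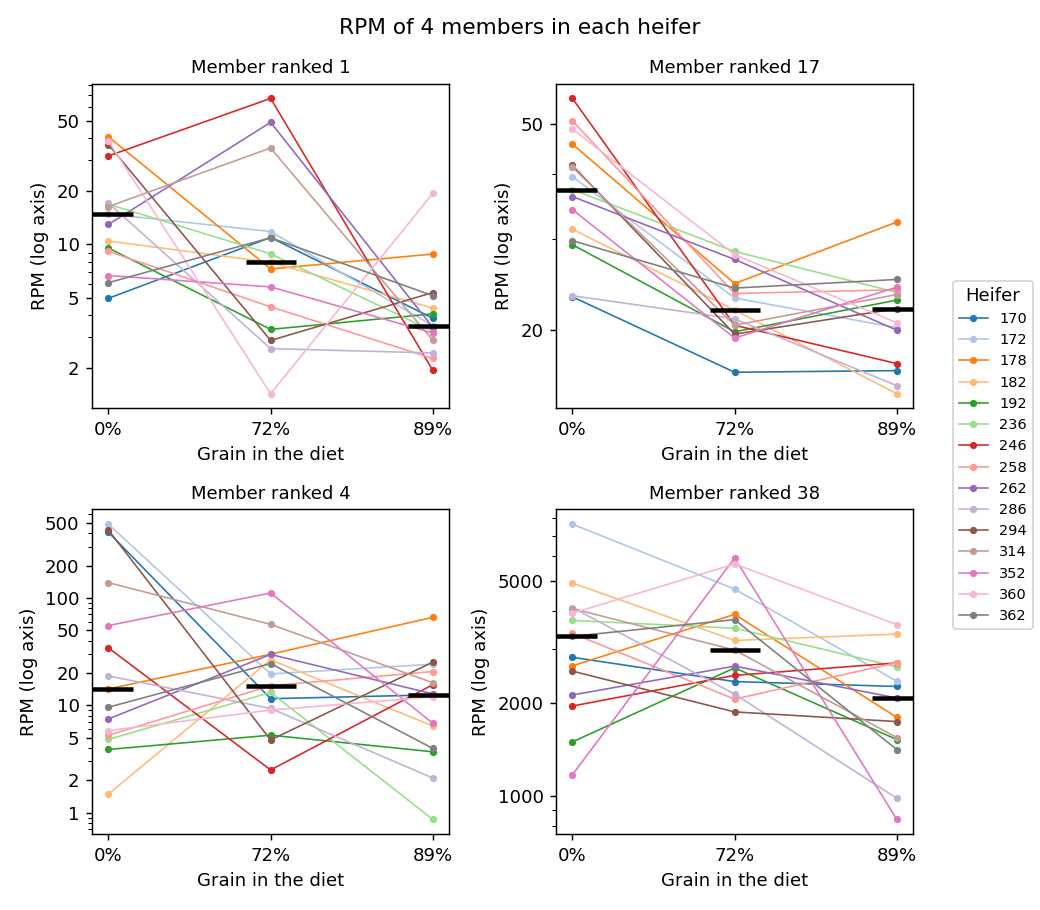
RPM on a log axis of the members ranked 1, 17, 4 and 38 in each of the 15 heifers on the 3 diets, with 1 line per heifer and the median of each diet as a black bar. The member ranked 17 was lower on 89% than on 0% grain in all 15 heifers, and the medians of the member ranked 4 stayed at 14.2, 15.2 and 12.5 RPM while its highest value was 485 RPM on 0% grain and 65.9 RPM on 89% grain.

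The comparison of 72% with 0% grain asked whether the members were already lower after the first dietary transition. It shares the 0% grain samples with the rule, which favours lower values, so the members' counts are read beside those of all genes only. With limma on log2(RPM + 1), 6 members were called lower (fold change over 1.5 and p under 0.05 after Benjamini-Hochberg adjustment), which is 8.7% of the members. The same call was made for 0.13% of the expressed genes (15 of 11516). With the adjusted p alone, 21 members and 1.88% of the expressed genes (216) were lower. The share over all genes depended on the scaling. By the same limit, TMM scaling gave 678 genes and 24 members. Median-of-ratios scaling gave 716 genes and 24 members, and edgeR on the recovered reads gave 828 genes and 30 members. The median difference was -0.42 over the members, ranging from -0.92 to 0.06, and 0.08 over all expressed genes.

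The 6 members called lower on 72% grain were those ranked 5, 17, 25, 28, 44 and 56. Their p-values rest on 0% grain samples that the rule also used, which favours lower values, so they describe the members only. The member ranked 28 had the largest difference, -0.92 ± 0.22 (SE), with 20.6 ± 10.1 RPM on 0% grain and 10.4 ± 4.97 RPM on 72% grain (limma, adjusted p = 0.00436, lower in 13 of 15 heifers). The member ranked 56 fell in all 15 heifers, with a difference of -0.85 ± 0.14, from 38.9 ± 14 to 21.0 ± 6.07 RPM (limma, adjusted p = 0.000193). The member ranked 17 had a difference of -0.69 ± 0.11 (limma, adjusted p = 5.92e-05, lower in 15 of 15 heifers). The remaining 3 had differences of -0.65, -0.63 and -0.60. With edgeR on the recovered reads 21 members were called lower, against 47 of all expressed genes, and these 21 held all 6.

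The comparison of 89% with 72% grain asked about the second transition, and it shares the 89% grain samples with the rule. In limma 0 of 11516 genes (0%) and 0 members were called lower, and edgeR on the recovered reads also called 0 genes. At an unadjusted p under 0.05 in limma, 27 members (39.1%) and 7.31% of the expressed genes were lower. The median difference was -0.26 over the members, from -1.07 to 0.31, and -0.03 over all expressed genes. When the heifer was added to the fit as a replicate block, 14 genes were called, 7 of them lower, and 4 of those 7 were members. These 4 were ranked 2, 9, 12 and 23, and their adjusted p in the blocked limma fit was 0.0495, 0.0365, 0.0327 and 0.0327. The rule used the same 89% grain samples, which favours lower values there, so these p-values describe the members only.

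The member ranked 9 had almost the same mean level on the first pair of diets. Its RPM was 9.46 ± 7.78, 8.15 ± 4.00 and 3.96 ± 2.91 on the 3 diets in order (SD, n = 15), and it was lower on 89% than on 72% grain in 12 of 15 heifers. The member ranked 2 was lower at both steps, with 70.3 ± 45.4, 39.9 ± 17.2 and 25.1 ± 10.7 RPM on the 3 diets.

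The share of the mean log2 fall that was present on 72% grain was computed for each member. It is a ratio of 2 means with errors. In the member ranked 8, the difference from 0% to 72% grain was 0.05 ± 0.73 (SE). Whether the share differs between members beyond its error was not tested. The share had a median of 59.2% and ranged from -9.16% to 159%. It was 75% or more in 26 members, between 25% and 75% in 30, and under 25% in 13. In 5 members the mean was lower on 72% than on 89% grain, and in 2 it was higher on 72% than on 0% grain. One of these 2 was the member ranked 38, which had the highest level of all members, with RPM of 3320 ± 1590, 3318 ± 1271 and 2105 ± 807 on the 3 diets in order (SD, n = 15). Its log2 difference from 0% to 72% grain was 0.06 ± 0.21 (SE), and 8 of 15 heifers were lower on 72% grain. At the other end, the member ranked 56 stood at 21.0 ± 6.07 RPM on 72% grain and 26.2 ± 7.5 RPM on 89% grain, a difference of 0.31 ± 0.13 (SE) that did not pass the threshold in limma (adjusted p = 0.354).

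**Figure D4:**
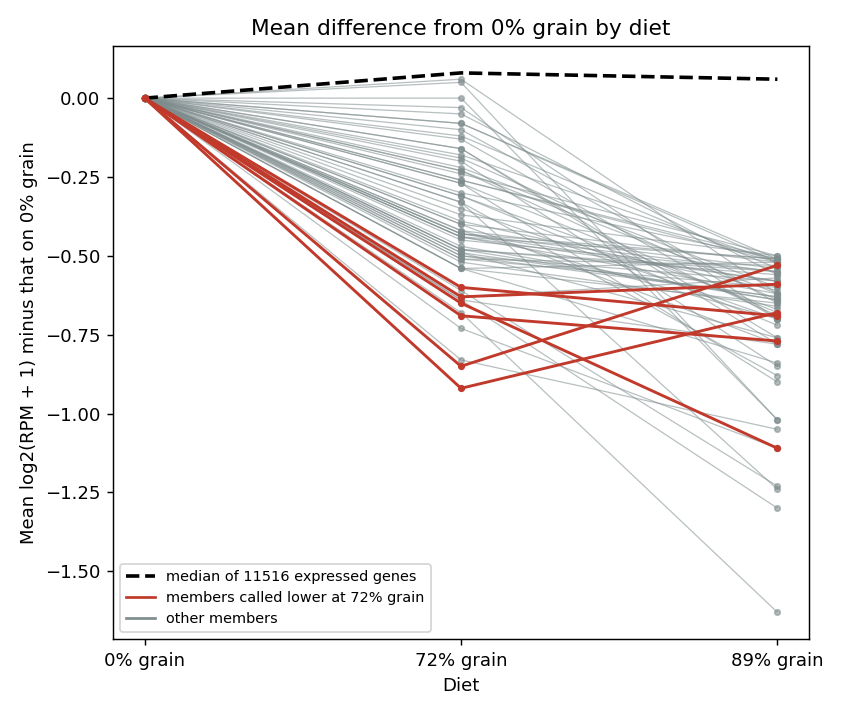
Mean over 15 heifers of log2(RPM + 1) on each diet minus that on 0% grain, 1 line per member, with the 6 members called lower on 72% grain in red and the median of the 11516 expressed genes as a dashed line. On 72% grain the members ranged from -0.92 to 0.06, and on 89% grain all lie at -0.5 or less, as the rule sets.

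The size of the fall also varied among heifers. The mean over the members of the difference between 89% and 0% grain ranged from -1.46 in heifer 286 to -0.05 in heifer 262. Heifer 172 had -1.37, heifer 294 had -1.22, and heifers 170 and 314 had -1.18 each. All 69 members were lower in heifer 286, and 40 of 69 were lower in each of heifers 182 and 262. In heifer 286, 74.8% of all expressed genes were lower on 89% than on 0% grain, and their mean difference was -0.25, the lowest of the 15 heifers. In heifers 170, 172, 294 and 314, the mean over all expressed genes was 0.07, 0.15, 0.11 and -0.01. From 0% to 72% grain, the mean over the members ranged from -1.32 in heifer 294 to 0.44 in heifer 352, where all expressed genes had a mean of 0.31. What part a shift over all genes had in these values was not tested.

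**Figure D5:**
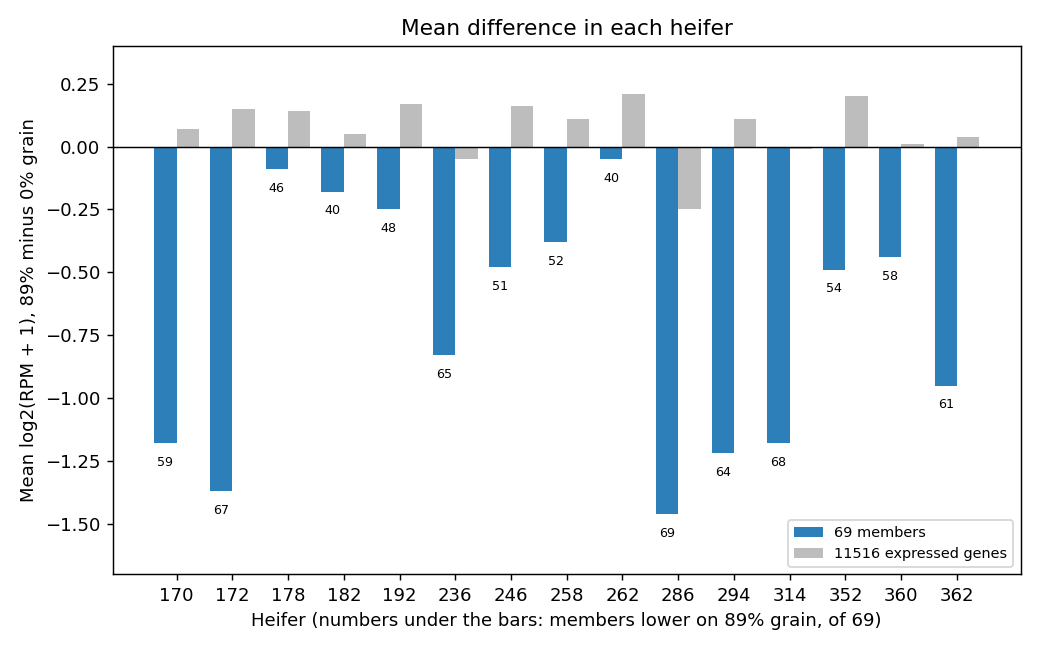
Mean difference in log2(RPM + 1) between 89% and 0% grain in each heifer over the 69 members (blue bars, with the number of members lower on 89% grain under each bar) and over the 11516 expressed genes (grey bars). The members' mean is below 0 in every heifer, from -1.46 in heifer 286 to -0.05 in heifer 262.

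The spread between heifers was wider on 0% grain than on the grain diets. The SD of log2(RPM + 1) had a median over the members of 0.64 on 0% grain, 0.47 on 72% grain and 0.5 on 89% grain, against 0.22, 0.2 and 0.21 over all expressed genes. It was smaller on 89% than on 0% grain in 62 of 69 members (89.9%) and in 57.3% of all expressed genes. The coefficient of variation of the RPM was smaller on 89% grain in 56 members (81.2%) and in 58.7% of all expressed genes. An SD of 1 or more was found in 13 members on 0% grain and in 7 members on each of the grain diets, and over all expressed genes in 70 on 0% grain, 41 on 72% grain and 43 on 89% grain, a decrease in both. The rule uses the 0% and 89% grain samples, and a gene that is very high in a few heifers on 0% grain can pass it for that reason, so these shares describe the members.

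Heifers kept their order only in part. Across the 15 heifers, the correlation of a member's level on 0% grain with its level on 72% grain had a median of 0.22, against 0.25 over all expressed genes. Between 0% and 89% grain the medians were 0.21 and 0.13, and between 72% and 89% grain 0.32 and 0.27. A correlation over 0.5 between 0% and 72% grain was found in 8 members (11.6%) and in 18.6% of all expressed genes. Between 0% and 89% grain the shares were 11.6% and 10.9%, and between 72% and 89% grain 20.3% and 20.8%.

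With the median over heifers in place of the mean, an alternative chosen after the data were seen, the rule gave 84 genes, of which 55 were members. The other 14 members had a median between -0.5 and 0, up to -0.21 in the member ranked 53. The median uses the same differences that chose the members, so these counts describe the rule.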

How the data were processed

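RNA of ruminal papillae was sequenced from 15 heifers on 3 diets. The authors aligned reads to bovine UMD 3.1 with TopHat2 2.0.10, counted them per Ensembl gene with htseq-count and deposited RPM, 1 file per sample. The study's methods divide by the total of mapped reads, but the RPM in each file sum to 1000000, so the reads on genes formed the total. Each RPM value was a whole number of reads to within 0.01 of a read in 100% of values, and these recovered reads gave the depth. The depth is higher than the read total the study gives per sample; the reason was not tested, and it is given here in counted reads only. No pair of samples was alike: a chi-square of the reads per degree of freedom was 18.4 or more in each of 990 pairs. Each sequencing lane held samples of all 3 diets, and the lane of a single sample is not given in the sources used here.

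The expressed genes (RPM over 1 in every heifer of 1 diet or more) entered limma 3.58.1 (R 4.3.3), with log2(RPM + 1) as the response and a trend of the variance over expression. Adjustment of p-values by Benjamini and Hochberg ran over all expressed genes. Fold changes on this scale understate the change of low genes. Calls needed a fold change over 1.5 with an adjusted p under 0.05. The study set the same limits but tested with edgeR. Against 0% grain, edgeR here called more genes lower than limma did on either grain diet. The heifer was no term in these fits of 30 samples, as the study's methods state none. The SE and p-values thus ignore the pairing of samples, except where the replicate block is named. Counts of heifers with a lower value do use the pairing. The heifer number in the sample labels pairs the samples, since it marks the same animal. Deviations from the diet means had a median correlation across genes of 0.39 (0% and 72% grain), 0.27 (0% and 89%) and 0.33 (72% and 89%) within a heifer. Between heifers the medians were -0.03, -0.02 and -0.03. The lowest values within a heifer were -0.03, -0.1 and 0.03, so the expression values do not show the pairing for every heifer. The results were recomputed with a replicate block for the heifer, other scalings, pseudocounts and filters, 1 fit of all 45 samples, no variance trend, edgeR 4.0.16 on the recovered reads (198 genes called for 72% against 0% grain, 310 for 89% against 0% grain), and each heifer left out. The median over heifers and the correlations without a heifer were added after the data were seen. Fits were tested on simulated reads that held no heifer effect, so this test cannot check how the pairing was treated. Descriptions used Python with numpy and pandas, and plots matplotlib.

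The members and lists were chosen with earlier results of these data known. Genes described singly were to be the 10 with the largest fall, the 10 highest on 0% grain, the members called in a comparison, members of gene lists, those next to the limit, and the 5 highest and 5 lowest on 72% relative to 0% grain; the text gives a part of these. The members ranked 24, 35, 43, 53, 57 and 58 were described after their values were seen. The lists of marker and pathway genes could not be applied, because none of the 24616 identifiers matched a symbol in the RefSeq table of assembly ARS-UCD2.0, and coordinates and sequences are not given for the same reason. Ruminal pH groups are not in the sample labels and were not used.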

Additional observations from a re-analysis of the deposited data

How the results depend on the processing

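The rule gave 69 genes as reported, 104 with a pseudocount of 0.1, and 44 with the limit at a fold change of 1.5; TMM and median-of-ratios scaling gave 102 each, and all 69 members were among them. Leaving out 1 heifer gave 54 to 87 genes. For 72% against 0% grain, 177 genes were called, against 307 with a pseudocount of 0.1 and 2343 with no minimum fold change, and 150 to 209 without 1 heifer. Of these, 15 were called lower, against 47 in edgeR on the recovered reads and 216 with no minimum fold change, and 11 to 18 without 1 heifer. Members called lower were 6, against 10 with median-of-ratios scaling, where 21 of all expressed genes were called lower. They were 21 in edgeR, 21 with no minimum fold change, and 4 to 8 when each heifer was left out. The fit with the replicate block gave 8 members, the 6 among them, and 18 of all expressed genes were called lower there.

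For 89% against 72% grain, 0 genes were called in limma, against 14 with the replicate block, 4 of them members, and 2 with TMM and 2 with median-of-ratios scaling, none of them members. Leaving out 1 heifer gave 0 to 8 genes, with 8 without heifer 236, 2 without heifer 170 and 1 without heifer 182, and 0 members each time. For 89% against 0% grain, 33 genes were called lower and 205 higher, against 46 and 144 with TMM scaling, 96 lower in edgeR, 336 lower with no minimum fold change, and 25 to 44 lower without 1 heifer. Of the 33, 27 were members, which this same difference chose, so these counts are no test of the members. Differences of the 2 genes given by identifier kept their sign under all alternatives, none of which used the median over heifers. For ENSBTAG00000048171, that median was 0.56 for 72% minus 0% grain, opposite in sign to the mean, and -0.42 for 89% minus 72% grain. For ENSBTAG00000039861, the medians were -0.36 and -0.74. For ENSBTAG00000039861, 72% minus 0% grain was -0.68 in limma and -0.35 in edgeR (adjusted p = 0.238 and 0.648), and 89% minus 72% grain was -0.95 and -1.60. For ENSBTAG00000048171, 72% minus 0% grain was -0.61, and -0.21 without heifer 294. The causes of these differences were not tested. A value of 1 RPM rested on at least 22.5 reads, which limits the precision of the lowest members.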
